A study of Hydra viridissima with 4 samples.

Results

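Green hydra (Hydra viridissima) is a small freshwater polyp whose digestive epithelial cells house living single-celled algae, which pass photosynthetic sugar to their host. Animals without algae are called aposymbiotic and depend on prey alone. Open chromatin is DNA that is not tightly packed, and it marks promoters, enhancers and other stretches where regulatory proteins can bind. ATAC-seq maps it with the transposase Tn5, which inserts sequencing adapters into accessible DNA.

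The regions described here are open stretches found with and without algae that stood higher in the order of accessibility when algae were present. They were chosen from the fold enrichment of the deposited peak lists, which is the ratio of the tag pileup at a peak's summit to a background estimated by the peak caller. Peaks of the 4 lists that shared at least 1 bp were merged into 117973 regions, of which 10256 held a peak in every list. For each library, the highest fold of a shared region was turned into a percentile rank among the shared regions, from just above 0 for the weakest to 100 for the strongest. A region was kept when its rank in the symbiotic library exceeded that in the aposymbiotic library by at least 15 points in both replicate pairs. This rule kept 811 of the 10256 shared regions, or 7.91%.

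The study compared 2 groups of 2 libraries, each with biological replicates 1 and 2. The first was the green/symbiotic form of clone 2, with its algae, and the second was the aposymbiotic form of clone 2. All 4 libraries were made from cells of 50 pooled whole animals of a single clone, large and without buds or gonads, kept in medium with penicillin and streptomycin and last fed brine shrimp. The labels do not say how the algae had been removed or how old the animals were. In whole animals, fewer cells of a type and less open DNA per cell cannot be told apart. The peaks carry no gene names, so cell types were not checked against markers. The symbiotic lists held 31072 and 87128 peaks in replicates 1 and 2, against 21481 and 78594 in the aposymbiotic lists. Total reads are unknown, and the genome-wide background of 6.80 and 13.5 tags in symbiotic against 9.39 and 16.7 tags in aposymbiotic libraries stands in for depth. Each list carries its own date-like tag in the peak names, so that date and library cannot be told apart.

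All 4 libraries entered the rule, so the ranks and folds below describe the chosen regions and were not tested. In pair 1, 22.9% of shared regions ranked at least 15 points higher in the symbiotic library, and in pair 2 it was 22.8%. The 811 regions that did so in both pairs made up 34.5% of the 2348 regions of pair 1 and 34.7% of the 2335 of pair 2. Regions that ranked at least 15 points lower in both pairs numbered 781, or 7.62% of the shared regions. A further 442 regions (4.31%) were at least 15 points higher in pair 1 and at least 15 points lower in pair 2, and 485 (4.73%) showed the reverse. Across all shared regions the rank differences of the pairs correlated weakly, with Pearson's r = 0.17 and Spearman's rho = 0.17 over 10256 regions. The regions of a pair share 2 libraries and their depth, so this is a description only. The plot of rank differences shows that the 811 regions lie in a corner of a continuous cloud, with no gap to the rest. The smallest lower difference inside the rule was 15.01 points and the largest outside it was 14.99.

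**Figure D1:**
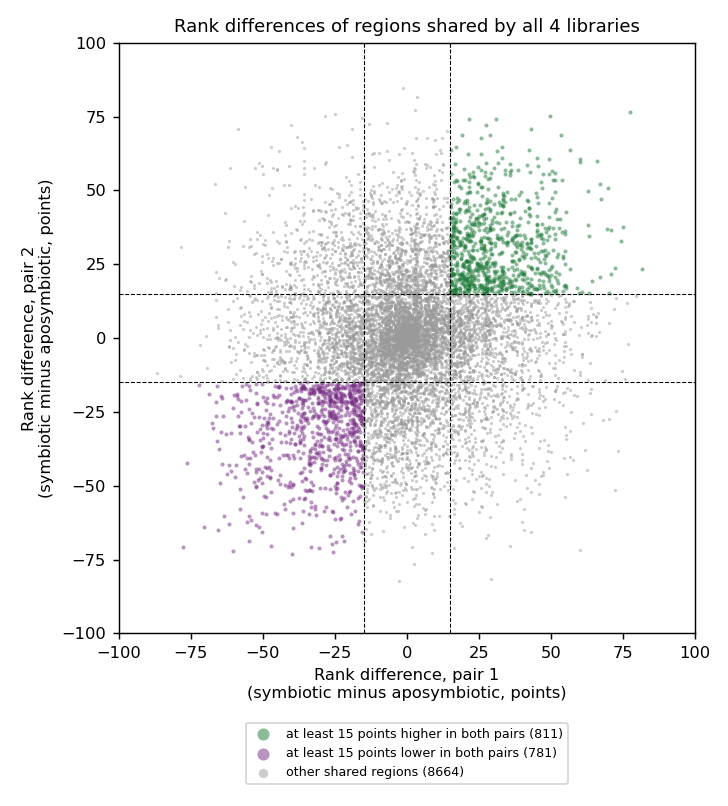
Rank difference of each of the 10256 shared regions, symbiotic minus aposymbiotic in percentile points, in replicate pair 1 (x axis) and pair 2 (y axis). Dashed lines mark 15 and -15 points, green points are the 811 regions at least 15 points higher in both pairs, purple points the 781 at least 15 points lower, and grey points all others, with no gap at the lines.

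Among the shared regions, the 811 held a middle place with algae and a low one without. Their median rank was 56.1 in symbiotic replicate 1, against 19.9 in aposymbiotic replicate 1. In replicate 2 it was 60.1 in the symbiotic library, against 25.7 in the aposymbiotic library. All other shared regions had median ranks of 48.6 and 48.5 in symbiotic replicates 1 and 2 and of 53.8 and 53.0 in aposymbiotic replicates 1 and 2. No member had a rank of 10 or less in either symbiotic list, while 209 (25.8%) did in the first aposymbiotic list and 160 (19.7%) in the other. At the top, 18 and 19 of them ranked above 90 in symbiotic replicates 1 and 2, and none did in either aposymbiotic list. The rule itself keeps regions out of these extremes, since a gain of 15 points needs room above and below. When ranks were taken among all regions of a list, shared or not, and the rule was applied to these, the regions it kept had median ranks of 69.7 and 85.7 in symbiotic replicates 1 and 2, against 26.9 and 51.0 in aposymbiotic replicates 1 and 2. This ranking kept 785 shared regions, with 493 of the 811 among them, while 457 shared regions ranked at least 15 points lower in both pairs. On that scale the place of the 785 in aposymbiotic replicate 2 was a middle one.

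**Figure D2:**
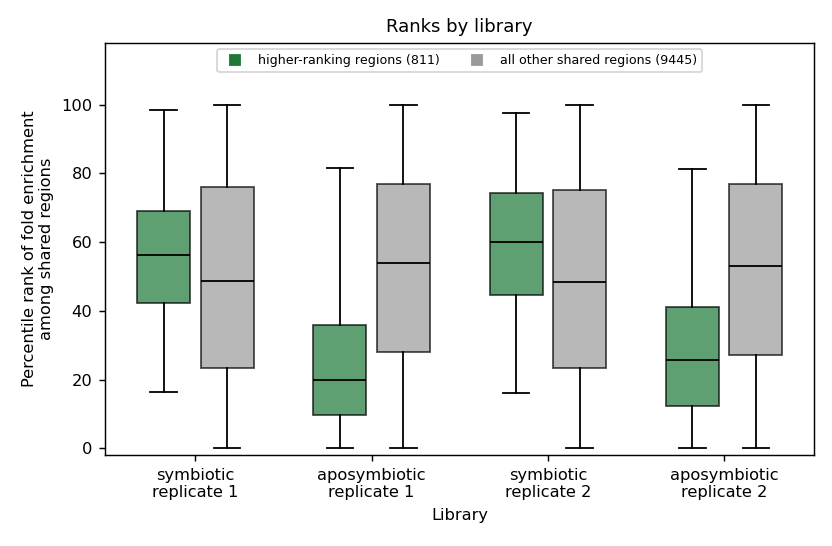
Percentile rank of fold enrichment (y axis) in each library (x axis) for the 811 higher-ranking regions (green) and the 9445 other shared regions (grey). Boxes show the median and quartiles and whiskers the lowest and highest region. Green medians are 56.1 and 60.1 in the symbiotic libraries, against 19.9 and 25.7 in the aposymbiotic libraries.

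The folds behind these ranks were modest. The median fold of the 811 regions was 3.70 and 3.79 in symbiotic replicates 1 and 2, against 2.44 and 2.49 in aposymbiotic replicates 1 and 2. The aposymbiotic medians lay near the weakest folds called over the genome-wide background, which were 2.21 and 1.87 in these lists. The median ratio of the folds, symbiotic over aposymbiotic, was 1.47 in pair 1 and 1.51 in pair 2, and 1.13 and 1.11 over all other shared regions. Fold was above that of the paired aposymbiotic library in all 811 regions in both pairs. It was also higher in 6858 and 6292 of the 9445 other shared regions in pairs 1 and 2. The rule used folds of separately called lists only to order peaks within a list, so these ratios and counts between libraries are a description.

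Both tags and local background enter the fold that the rule ranked. Tags are the units that the caller piled up, whether fragments or reads, and the tags and local background of each summit were solved from its fold and p-value. The 811 regions held a median of 30 and 61 tags in symbiotic replicates 1 and 2, against 27 and 49 in aposymbiotic replicates 1 and 2. More tags were found in the symbiotic than in the aposymbiotic library in 635 regions (78.3%) of pair 1 and in 795 (98.0%) of pair 2, although both symbiotic libraries had the lower background. Among all other shared regions this was so in 19.5% and 31.6%. The median log2 ratio of tags, symbiotic over aposymbiotic with 1 added to each, was 0.16 and 0.31 in pairs 1 and 2, against -0.24 and -0.15 for all other shared regions. The median log2 ratio of the local background was -0.41 and -0.29 in pairs 1 and 2, both for the 811 regions and for all other shared regions, the same as the ratio of the genome-wide backgrounds. In pair 1 the median log2 ratio of folds in the 811 regions was 0.55, so the background ratio was the larger of its 2 parts, and in pair 2 it was 0.59, with parts of like size. The 811 regions and all other shared regions had like background ratios and unlike tag ratios. When regions were ranked by tags alone, without the background, 727 regions met the rule and 568 of them were among the 811.

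Tag counts of this size leave wide intervals. For each summit an exact 95% Poisson interval of the tags was carried over to fold and to rank. The intervals of the paired ranks lay apart in both pairs, with symbiotic higher, in 11 of the 811 regions (1.36%). Over all shared regions this was so in 16, or 0.156%, and with symbiotic lower in 6, or 0.0585%. Taken singly, the intervals lay apart in 16 members (1.97%) in pair 1 and in 61 (7.52%) in pair 2, whose libraries had the higher background. Among all other shared regions this was so in 0.529% and 1.25%. In all other members the intervals of the pair overlapped. The intervals cover counting error only and take no account of the choice of the strongest summit. The rule chose members by these same folds, so a larger share among members follows from the choice.

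The region with the largest gain lay on scaffold 3 (9805814 to 9805987), 174 bp wide. Its fold was 5.38 and 5.67 in symbiotic replicates 1 and 2, against 2.21 and 2.20 in aposymbiotic replicates 1 and 2. It held 41 and 81 tags in the symbiotic libraries, against 22 and 38 in the aposymbiotic libraries. Its rank was higher by 77.5 and 76.5 points, and it alone among the 10 largest gains had rank intervals that lay apart in both pairs. The fold of aposymbiotic replicate 1 was the lowest called over the genome-wide background of that list, while the ranks with algae were 83.1 and 88.2. The background at this site equalled the genome-wide level in all 4 libraries.

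The next region, on scaffold 9 (11688768 to 11689532), had folds of 4.36 and 6.23 in symbiotic replicates 1 and 2, against 2.31 and 2.60 in aposymbiotic replicates 1 and 2. A narrow region of scaffold 11 (4459988 to 4460286) had folds of 4.17 and 3.78 with algae, against 2.15 and 1.73 without. The region on scaffold 2 (10231419 to 10231567) had folds of 4.36 and 4.50, against 2.31 and 2.32. These regions resembled the first in their aposymbiotic folds, which stayed below those of both symbiotic libraries. Of the 3, those on scaffolds 11 and 2 had the strongest summits of all 4 libraries within 72 and 50 bp, and the one on scaffold 9 within 247 bp.

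Scaffold 7 held another 2 of the 10 largest gains. At 15867935 to 15868419 the folds were 4.10 and 5.62 with algae, against 2.30 and 2.48 without. At 8975039 to 8975946 they were 4.57 and 4.89, against 2.24 and 2.57, with summits only 15 bp apart over the 4 libraries. The width of that site, 908 bp, came from the replicate 2 peaks, which measured 908 bp in the symbiotic and 663 bp in the aposymbiotic library. Its replicate 1 peaks measured 124 bp in the symbiotic and 166 bp in the aposymbiotic library. The remaining 4 were on scaffold 6 (15127286 to 15128105), scaffold 4 (6446978 to 6447512), and scaffold 8 (6315390 to 6315614 and 7656135 to 7656400). Their symbiotic folds ranged from 3.86 to 5.46 and their aposymbiotic folds from 1.87 to 2.60. In all 10 regions both symbiotic folds were above both aposymbiotic folds. This was so in 807 of the 811 members (99.5%) and in 43.4% of all shared regions, and the rule used these folds.

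**Figure D3:**
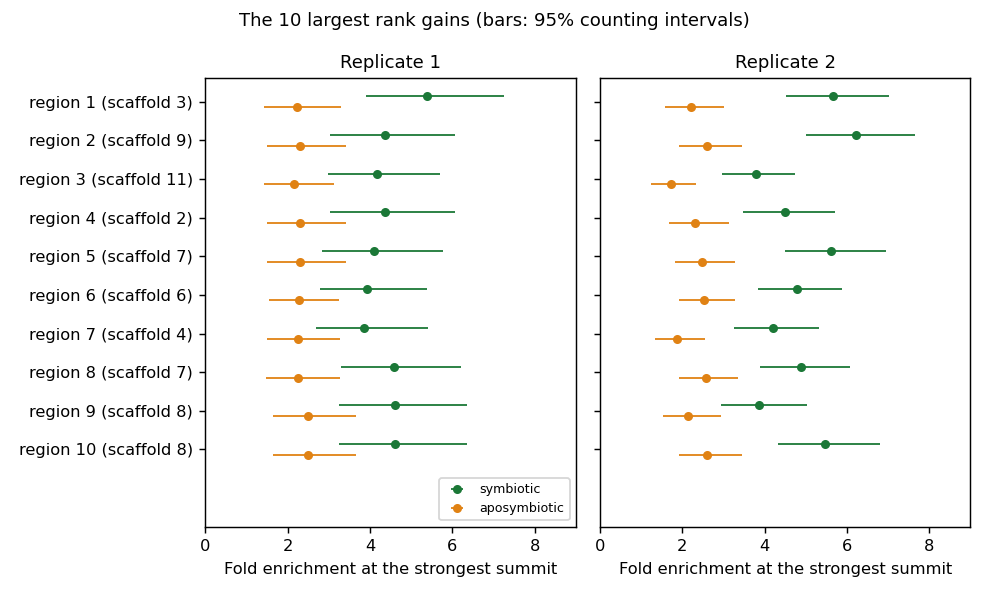
Fold enrichment at the strongest summit (x axis) in the 10 regions with the largest lower rank gain (y axis, in order of gain), for replicate 1 (left) and replicate 2 (right). Points are single libraries, green symbiotic and orange aposymbiotic, and bars are 95% counting intervals. Symbiotic points lie between 3.78 and 6.23, above all aposymbiotic points, which lie between 1.73 and 2.60.

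The strongest regions of the set kept a clear signal without algae as well. On scaffold 6 (1883647 to 1884104) the fold was 8.25 and 8.70 in symbiotic replicates 1 and 2, against 4.41 and 4.54 in aposymbiotic replicates 1 and 2. It held 97 and 205 tags with algae, against 68 and 123 without, the most tags of any member in each library. Its rank gain of 15.1 and 16.2 points was near the smallest of the set. A site of scaffold 7 (18337227 to 18337434) had folds of 9.87 and 6.50 with algae, against 3.56 and 3.05 without. That site stood alone, with the nearest other shared region 243036 bp away.

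The other 3 of the 5 strongest lay on scaffold 7 (4870316 to 4870583), scaffold 12 (7147238 to 7147552) and scaffold 3 (5239228 to 5239787). Their symbiotic folds ranged from 6.36 to 8.13 and their aposymbiotic folds from 3.35 to 4.13. In all 5 the strongest summits of the 4 libraries lay within 65 bp, so the same site was compared. All but the one on scaffold 3 were among the 11 regions whose rank intervals lay apart. The other 6 of those 11, named after their values were seen, were on scaffold 12 (3006117 to 3006395), scaffold 2 (775071 to 775572), scaffold 6 (2508529 to 2508716), scaffold 7 (1256751 to 1257086), scaffold 10 (10848735 to 10849179) and scaffold 8 (7182946 to 7183353). In these 6 the folds ranged from 5.56 to 9.66 with algae and from 2.88 to 4.48 without.

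Close to the threshold the regions looked alike on both sides. Just inside were scaffold 4 (6130485 to 6130763), scaffold 3 (19229696 to 19230358) and scaffold 1 (20674917 to 20675513). Their symbiotic folds ranged from 2.70 to 4.10 and their aposymbiotic folds from 2.11 to 3.12. Just outside were scaffold 4 (2967143 to 2967317 and 3515601 to 3516207) and scaffold 2 (872435 to 872993). These had symbiotic folds from 2.82 to 3.82 and aposymbiotic folds from 2.04 to 2.88.

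The strongest summits of these regions were often at different places in different libraries. The strongest summits of the 4 libraries spanned a median of 151 bp in the 811 regions (95% binomial interval of the median 137 to 167) and 83 bp in all other shared regions (79 to 87). All 4 lay within 100 bp in 280 of the 811 (34.5%) and in 55.1% of all other shared regions. The scatter was larger on the aposymbiotic side, where the rule asks for lower ranks. The 2 symbiotic summits were a median of 29 bp apart and the 2 aposymbiotic summits 79 bp apart, against 25 and 30 bp in all other shared regions. In the regions that ranked lower with algae the order was turned round, at 39 bp for the symbiotic and 22 bp for the aposymbiotic summits. In both sets the summits lay farther apart on the side chosen for its lower ranks, but the sets were unlike in total spread. In the regions that ranked lower with algae, the strongest summits of the 4 libraries spanned a median of 79 bp. All 4 lay within 100 bp in 57.1% of them. Both values were close to those of all other shared regions. Scattered summits and low fold cannot be told apart here. Fewer lists give a smaller span by construction. The excess over all other shared regions was 68 bp with all libraries, 20 bp without aposymbiotic replicate 1, 43 bp without aposymbiotic replicate 2 and 44 bp without symbiotic replicate 2. It was 11 bp when peaks needed a -log10 q of at least 5.

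A rank gain in this set can thus set one summit against another. In pair 1 the strongest symbiotic summit lay inside an aposymbiotic peak in 544 of the 811 regions (67.1%), and in pair 2 in 713 (87.9%). For all other shared regions these shares were 80.2% and 92.7%. In 315 regions (38.8%) it lay outside every aposymbiotic peak in at least 1 pair, against 23.9% of all other shared regions. It lay outside in both pairs in 50 regions (6.17%), against 3.22% of all other shared regions, and in exactly 1 pair in 265. In the reverse direction, the strongest aposymbiotic summit lay inside a symbiotic peak in 577 regions (71.1%) in pair 1 and in 775 (95.6%) in pair 2. For all other shared regions this was so in 79.6% and 94.8%, so in pair 2 the shares were alike. The rule favours low aposymbiotic folds, so these shares are a description only.

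The share of higher-ranking regions differed between classes of this spread. Among shared regions whose 4 strongest summits lay within 100 bp, 5.11% (280 of 5480) ranked higher with algae and 8.14% (446) ranked lower. Where summits were farther apart, 11.1% (531 of 4776) ranked higher and 7.01% (335) lower. The totals of 811 and 781 regions add up these unlike shares. With summits within 20 bp the share of higher-ranking regions was 2.17% (41 of 1890, exact 95% interval 1.56% to 2.93%), and at over 200 and up to 400 bp it was 12.1% (10.7% to 13.7%). In the widest class, over 400 bp, it was 10.2% (8.34% to 12.2%). These binomial (Clopper-Pearson) intervals cover counting error only, and regions are not independent replicates. The classes also differed in rank. Other shared regions with summits within 100 bp had median ranks of 64.9 to 71.3 over the libraries, against 48.5 to 53.8 for all other shared regions. A gain of 15 points needs room above and a drop needs room below, and these shares were not matched for rank.

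**Figure D4:**
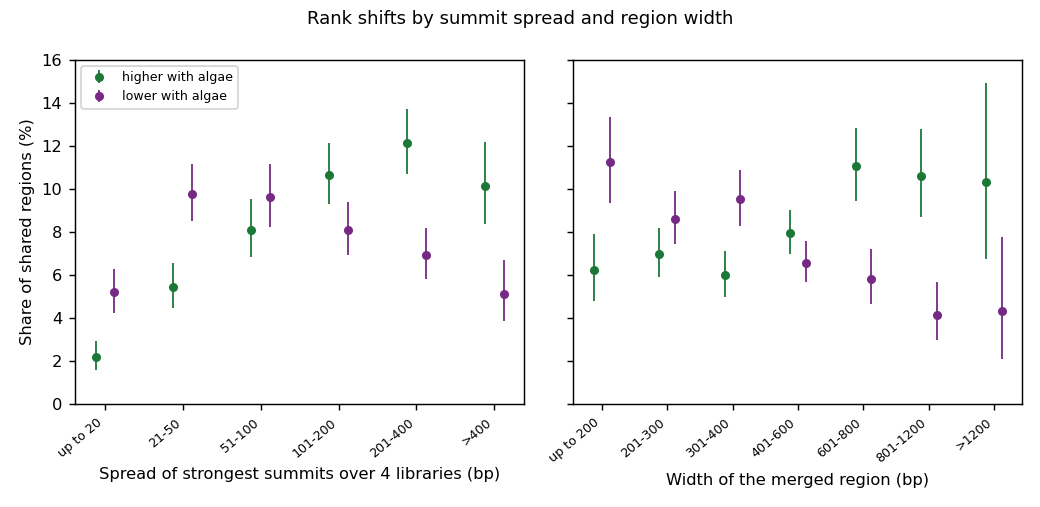
Share of shared regions (y axis, percent) that rank at least 15 points higher (green) or lower (purple) with algae in both pairs, by the spread of the strongest summits (left) and by the width of the merged region (right). Bars are exact 95% binomial intervals. The green share is 2.17% at a spread up to 20 bp, 12.1% at over 200 and up to 400 bp and 10.2% above that, and the purple share is 11.2% for regions up to 200 bp wide and 4.15% at over 800 and up to 1200 bp.

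The 280 regions with summits within 100 bp compare a single site across libraries. Their median fold was 3.98 and 3.99 in symbiotic replicates 1 and 2, against 2.60 and 2.57 in aposymbiotic replicates 1 and 2. They held a median of 34 and 66 tags with algae, against 29 and 53 without. Tags were higher in the symbiotic library in 238 of them (85.0%) in pair 1 and in 273 (97.5%) in pair 2. Their median ranks were 64.6 and 66.1 with algae, against 29.6 and 29.3 without. Other shared regions with summits within 100 bp had median ranks of 69.1 and 64.9 in symbiotic replicates 1 and 2 and of 71.3 in both aposymbiotic replicates.

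Merged regions of the set were wider than the rest, and this went with the scattered summits. The median width was 475 bp (95% binomial interval of the median 454 to 495), against 404 bp in all other shared regions (398 to 410) and 353 bp in regions that ranked lower with algae. A width over 600 bp was found in 33.7% of the 811 and in 23.8% of all other shared regions. Among regions up to 200 bp wide 6.21% ranked higher with algae, and among those over 600 and up to 800 bp 11.1% did. For regions that ranked lower with algae the shares were 11.2% and 5.82%. The width difference of 71 bp did not hold in every setting. It was -24 bp among regions with summits within 100 bp, -6 bp without aposymbiotic replicate 1 and -4 bp without symbiotic replicate 2.

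The peak holding the strongest summit had a median width of 201 and 374 bp in symbiotic replicates 1 and 2, against 165 and 259 bp in aposymbiotic replicates 1 and 2. In all other shared regions these widths were 178 and 284 bp with algae, against 200 and 279 bp without. Peaks covered a median of 53.8% and 91.3% of the merged region in symbiotic replicates 1 and 2, against 43.0% and 71.4% in aposymbiotic replicates 1 and 2. For all other shared regions the shares were 54.0% and 83.3% with algae, against 60.2% and 83.9% without. The region was split into more than 1 peak in 15.7% and 9.49% of the 811 in symbiotic replicates 1 and 2, against 7.64% and 20.3% in aposymbiotic replicates 1 and 2. For all other shared regions these shares were 10.2% and 10.1% with algae, against 6.30% and 13.8% without. Splitting was thus more frequent with algae in pair 1 and without algae in pair 2. Peak width follows peak height, which the rule used, so these values are a description.

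The 3 widest regions were long stretches with several summits. On scaffold 10 (1905071 to 1906939) a stretch of 1869 bp had folds of 4.87 and 4.15 with algae, against 3.37 and 3.11 without, and its strongest summits spanned 1018 bp. The second, on scaffold 3 (4133770 to 4135581), had folds of 3.84 and 4.15, against 2.69 and 2.88, with a span of 376 bp. The third, on scaffold 9 (1938531 to 1940272), had 3.24 and 3.80, against 2.47 and 2.83, with a span of 535 bp. Each held between 2 and 11 summits per library.

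The higher-ranking regions lay near each other about as often as other shared regions lay near one of them. Of the 811, 52 (6.41%, exact 95% interval 4.83% to 8.32%) had another member within 10 kb, and 8.04% of all other shared regions had a member that close. Without 1 library, when more regions met the rule, these shares were 13.6% to 20.2% for members, against 11.9% to 21.7% for all other shared regions. With links of up to 10 kb they formed 759 single sites, 23 pairs and 2 runs of 3. A run on scaffold 13 comprised the sites at 6200937 to 6201492, 6209066 to 6209560 and 6216598 to 6217002. Its folds ranged from 3.26 to 4.64 with algae and from 2.29 to 2.90 without. The other run, on scaffold 7, comprised the sites at 4734049 to 4734519, 4741544 to 4741731 and 4747306 to 4747585. Its folds ranged from 3.25 to 4.74 with algae and from 2.37 to 2.88 without.

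The shared regions nearest to the 811, higher-ranking ones included, had a median rank difference of -0.02 points (95% binomial interval of the median -1.02 to 1.02), averaged over both pairs. For all other shared regions the neighbour's median was 0.19 points (-0.06 to 0.45). The neighbour's difference was above 0 in 49.8% of the 811 and in 50.7% of all other shared regions. The nearest shared region was itself higher-ranking for 49 of the 811 (6.04%, exact 95% interval 4.50% to 7.91%), against 7.88% of all other shared regions. Within 1 kb, where 126 neighbours lay, the median was -0.35 points, against 0.17 for all other shared regions. When higher-ranking regions were left out as neighbours, which removes gains of 15 points in both pairs by construction, the medians were -0.84 and -0.92 points. Distance to the nearest other shared region was also alike, with a median of 6425 bp, against 6589.5 bp. Both distances depend on how many regions are shared: without aposymbiotic replicate 1 they were 3429 bp, against 3213 bp, and with a stricter limit on peaks, a -log10 q of 5 or more, they were 12722 bp, against 15654 bp.

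**Figure D5:**
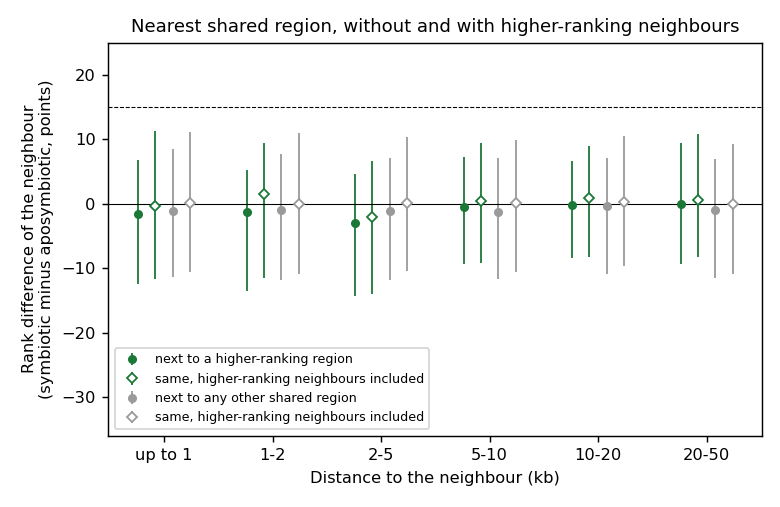
Rank difference (y axis, symbiotic minus aposymbiotic in percentile points, mean of both pairs) of the nearest shared region by its distance (x axis, kb), next to the 811 higher-ranking regions (green) and next to all other shared regions (grey). Points are medians and bars quartiles, filled circles leave higher-ranking regions out as neighbours and open diamonds include them, and the dashed line marks 15 points. Green diamonds lie between -2.08 and 1.57 points and green circles between -2.98 and -0.02 points.

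Regions called in the symbiotic lists alone lay near this set about as often as near other shared regions. A region with a peak in both symbiotic and neither aposymbiotic list lay within 10 kb of 225 of the 811 (27.7%, exact 95% interval 24.7% to 31.0%) and of 28.7% of all other shared regions. A region with a peak in both aposymbiotic and neither symbiotic list lay within 10 kb of 126 (15.5%, 13.1% to 18.2%), against 11.4% (10.8% to 12.1%). The share near symbiotic-only regions depends on how many lists define them. Without 1 library it was 34.7% to 93.0% for members, against 34.0% to 92.4% for all other shared regions, and with the stricter q limit it was 13.3%, against 16.5%. These shares were not tested, because neighbouring regions are not independent.

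Every one of the 14 large scaffolds held members, at shares that lay close together. The share of shared regions that ranked higher with algae ran from 6.07% on scaffold 10 (35 of 577, exact 95% interval 4.26% to 8.34%) to 9.03% on scaffold 9 (71 of 786, 7.12% to 11.3%), and the intervals overlapped. Scaffold 6 had 8.79% and scaffold 11 had 8.72%. Besides the site on scaffold 6 named above, the strongest members of these scaffolds were at 484699 to 484862 on scaffold 9 and at 14010916 to 14011636 on scaffold 11. On scaffold 9 the folds were 7.31 and 5.44 with algae, against 3.89 and 3.36 without. On scaffold 11 they were 5.69 and 5.41, against 3.47 and 3.58, with summits within 2 bp. Scaffold 14 held 11 members (6.67%) and 23 regions that ranked lower with algae (13.9%).

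Leaving out a library changed which regions met the rule. Of the 811 regions, 654 still met it without symbiotic replicate 1, 510 without aposymbiotic replicate 1, 570 without symbiotic replicate 2 and 690 without aposymbiotic replicate 2. With 3 lists the rule asked for at least 15 points in both remaining symbiotic against aposymbiotic comparisons, and more regions were shared. The members then numbered 2145, 2444, 1199 and 1439 in the same order, of 14794, 19493, 10372 and 10785 shared regions. The shares were 14.5%, 12.5%, 11.6% and 13.3%, against 7.91% with all 4 libraries. With the pairs crossed, symbiotic replicate 1 was set against aposymbiotic replicate 2 and the reverse. Then 696 regions (6.79%) met the rule, and 503 of the 811 were among them. Each rule without 1 library kept a replicate pair by which the 811 were chosen, and the crossed pairs used the same ranks. These overlaps are therefore no independent check of the set.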

How the data were processed

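The authors deposited 1 narrowPeak list per library. The tools named in the submitters' processing notes are MACS3 3.0.4, deepTools, Bowtie2 2.5.4 and Trim Galore 0.6.10. The sources used here name neither settings nor a genome assembly. Each deposited line has a fold (a ratio of pileup to background), a -log10 p-value, a -log10 q-value, a summit position and a score of 10 times the -log10 q-value, which was not used. In aposymbiotic replicate 2, 10 lines give no summit position, none of them in a shared region. Coordinates are those of the deposited lists, counted from 1.

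Merging, ranking and the rule are given above; ties shared their mean rank. Tags and background were solved from fold = (tags + 1) / (background + 1) and the Poisson p-value, which was met within 0.001 for every shared region. The 95% Poisson and binomial intervals cover counting error only. The labels call the libraries biological replicates and say no more of how they were separated. No test was made, because the rule used all 4 libraries. The rule used folds of separately called lists only to rank peaks within a list, and comparisons of folds between libraries are a description. The rule pairs libraries by replicate number, although the labels do not say that a number marks a shared culture or day.

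Named regions are the 10 largest lower rank gains, the 5 highest lower symbiotic ranks, 3 on each side of the threshold, the 3 widest, the runs with the most members, and the strongest member of the 3 scaffolds with the largest share. The members and lists were chosen with earlier results of these data known. Alternatives changed the threshold, ranked value, ranking population, q, list length, merging, pairing and libraries. Sequence, motifs and genes were not analysed here. Python 3.11.15, numpy 2.4.6, pandas 2.3.3, scipy 1.17.1 and matplotlib 3.10.9 were used, and the procedures were tested on simulated lists.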

Additional observations from a re-analysis of the deposited data

How the results depend on the processing

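The number of higher-ranking regions stayed within 1.5 times of 811 with 200 bp summit windows, with 1 peak per list, with ranks among all regions of a list, by -log10 q or by tags, at a threshold of 10 points, with crossed pairs and without symbiotic replicate 2. It was 494 (4.82% of shared regions, against 7.91% in the main setting) at a threshold of 20 points. With lists of equal length it was 420 of 5845 (7.19%, 298 of the 811 kept). At a -log10 q of at least 5 it was 323 of 4547 (7.10%, 119 kept), and with summits within 100 bp 280 of 5480 (5.11%). Without the replicate block it was 1830 (17.8%) with mean ranks and 696 (6.79%) with pairs crossed. Leaving out libraries or a replicate number gave 1199 to 13351, at shares of 11.6% to 27.9% of the regions then shared.

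The width difference to all other shared regions, 71 bp, was 27.5 bp with 1 peak per list, 11 bp at the stricter q, 31 bp with ranks among all regions, 100 bp by tags and -24 bp with summits within 100 bp, and ran from -6 to 73 bp without libraries. The difference in summit spread, 68 bp, was 50.5 bp with 1 peak per list, 48 bp at equal length, 11 bp at the stricter q, 88 bp by tags and 17 bp with summits within 100 bp, which limits it by construction, and 15 to 59 bp without libraries. The neighbours' rank difference, 0.09 points above that of other neighbours, was -0.21 with higher-ranking regions allowed as neighbours, 1.51 by tags and ran from -1.42 to -0.14 without libraries. The causes were not tested. Summit tags, a median of 27 to 61 per library, limit the precision of single ranks. The ranking by tags, the limit on summit spread and the wider choice of neighbours were chosen after seeing the data.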

Other observations

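The small scaffolds were described after their values were seen. The 8 scaffolds outside the 14 large ones held 80 shared regions, of which 6 ranked at least 15 points higher with algae in both pairs (7.50%, exact 95% interval 2.80% to 15.6%). None of the 80 ranked at least 15 points lower in both pairs, which allows a share of up to 3.75%, taken as 3 counts of the 80, for counting error alone. The 6 lay on scaffolds 19 (3 of 15 shared regions), 23 (2 of 8) and 16 (1 of 24).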
